A study of Mus musculus with 11 samples.

Results

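The difference between 2 muscles in their response to Myc induction was measured in mouse soleus and quadriceps, over all 11 RNA-seq libraries of the series and the 12128 genes present in both deposited tables. For each gene the quantity is the soleus effect (mean log2 level in Myc-labelled minus control libraries) minus the quadriceps effect, so a value above 0 means that the Myc-labelled libraries stood higher over their controls in soleus than in quadriceps. Of these genes, 11971 passed a filter on low values and were tested, and 157 did not. A further 993 genes were listed for soleus alone and 238 for quadriceps alone, and they have no difference of effects.

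The groups were soleus controls (3 libraries), soleus Myc-labelled (4), quadriceps controls (2) and quadriceps Myc-labelled (2), all from mice 2.5 months old. Per the labels, the Myc-labelled animals carried a tetracycline-controlled system that expresses Myc when doxycycline is given, had the drug overnight and were sampled 12 hours after it was taken away. The controls were of the same age, and the labels state neither their genotype nor whether they had doxycycline, so an effect of the drug or of the transgene's background cannot be told apart from one of Myc. The labels name no promoter or cell type that drives the transgene, and their extraction text names only soleus. Replicate numbers recur across the muscles, but no label says that a soleus and a quadriceps library of 1 number came from 1 animal, nor that the libraries of a group came from different animals. The p-values therefore rest on a spread between libraries that may be technical in part.

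Myc is a transcription factor that pairs with Max and binds E-box sequences, among them CACGTG, near the start of many genes. It is known for raising the genes that build ribosomes, transcribe ribosomal DNA, make nucleotides and polyamines, and fold new proteins. In muscle it is switched on by loading and resistance exercise. The soleus is a postural muscle rich in slow, oxidative fibres, whereas the quadriceps is made mostly of fast fibres with a slow region deep within it.

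The Myc gene itself did not identify the Myc-labelled libraries in either muscle. Its normalised signal was 30.04, 54.3 and 28.2 in the soleus controls, 26.3, 31.0, 28.8 and 27.7 in the soleus Myc-labelled libraries, 114 and 55.7 in the quadriceps controls and 86.4 and 33.6 in the quadriceps Myc-labelled libraries. The groups overlapped within each muscle, and the difference of effects was 0.23 log2 with a standard error (SE) of 0.66 (limma adjusted p = 0.999). The uncharacterised gene AI506816 did separate the labels. It was named with earlier results of these data known, so this is no independent check of the labels. Its signal was 67.2, 79.5 and 48.1 in soleus controls against 1214, 1142, 495 and 1165 in soleus Myc-labelled libraries, and 72.0 and 68.2 in quadriceps controls against 524 and 553 in quadriceps Myc-labelled ones. Every Myc-labelled library lay above every control of its muscle, and the difference of effects was 0.95 (SE 0.47, 95% interval -0.09 to 1.98, limma adjusted p = 0.999). The third soleus Myc-labelled library was the low one of its group, and without it the difference was 1.26. The libraries held an estimated 11089133 to 18379022 reads, and the muscle genes Acta1, Ckm, Ttn and Des were abundant in all 11, the lowest value being that of Des in a quadriceps library at 56560.5.

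No gene passed the test of the difference at an adjusted p under 0.05 (0% of 11971), and the smallest adjusted p was 0.390. Chance alone lets a fraction of about 0.05 of the tested genes through an unadjusted p under 0.05, and the 381 genes found were a smaller share. Of these, 310 (2.59% of the 11971) had the larger value in soleus and 71 (0.593%) the smaller. With 1 library left out, the first count was 248 to 637 (the highest without quadriceps Myc-labelled 2) and the second 68 to 161 (the highest without quadriceps Myc-labelled 1). Both muscles' values can also be compared library by library: each Myc-labelled library minus each control gives 12 differences in soleus and 4 in quadriceps. All 12 lay above all 4 in 354 genes (2.96%) and below them in 118 (0.986%). Over all genes tested the median difference was 0.03 log2, and 54.2% lay above 0. Of the 310 genes, 160 had effects above 0 in both muscles, 119 had an effect above 0 in soleus and below 0 in quadriceps, and 31 had effects below 0 in both. In whole muscle, a change in the share of a cell type and a change of RNA level within its cells cannot be told apart.

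Ribosome biogenesis genes, which process ribosomal RNA and assemble the subunits, had larger effects in soleus than in quadriceps along nearly the whole list, although no member passed the adjusted test. The difference lay above 0 in 78 of 82 members, with a median of 0.41 log2 beside 0.03 over all genes. Effects were above 0 in all 82 members in soleus (median 1.06) and in 80 in quadriceps (median 0.59). Among the 71 members with a soleus effect above 0.5, the quadriceps effect was 56.5% of the soleus effect in the median on the log2 scale, with quartiles of 45.7% and 68.9%. These members were picked by their soleus effect, which is also the divisor, so the ratio can be biased downwards. At an unadjusted p under 0.05, 31 members (37.8%, beside 2.59% of all genes) had the larger value in soleus and none the smaller. The list median stayed between 0.36 and 0.47 when any 1 of the 11 libraries was left out.

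Dkc1, the pseudouridine synthase that modifies ribosomal RNA, had 301, 250.3 and 247 in soleus controls and 944, 1126, 1369 and 1111 in soleus Myc-labelled libraries. In quadriceps it had 434 and 378 in controls and 755 and 803 with Myc. The groups did not overlap in either muscle, and the step on the log2 scale was longer in soleus (2.09) than in quadriceps (0.94). The difference was 1.14 (SE 0.22, 95% interval 0.67 to 1.62, limma adjusted p = 0.390, unadjusted 1.19e-04). Heatr1, a scaffold of the small-subunit processome, had 91.9, 149 and 119.7 in soleus controls, 505, 511, 540.0 and 556 in soleus Myc-labelled, 317 and 234 in quadriceps control and 499 and 483 in quadriceps Myc-labelled libraries. Every Myc-labelled library lay above the controls of its muscle, and the difference was 1.30 (SE 0.27, limma adjusted p = 0.390). Because the 2 tables were normalised separately, levels of the 2 muscles are set side by side only to show the steps within each.

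Gnl3, the nucleolar GTPase nucleostemin, had 216, 276 and 219.5 in soleus controls and 1146, 1186, 1399 and 1186 with Myc, against 436 and 332 in quadriceps controls and 1042 and 946 with Myc. All Myc-labelled libraries lay above the controls in both muscles. The 12 soleus differences ran from 2.05 to 2.69 and the 4 in quadriceps from 1.12 to 1.65, and the difference of effects was 0.99 (SE 0.22, limma adjusted p = 0.390). The pre-rRNA processing factor Ftsj3 differed by 0.90 (SE 0.20) and Nolc1, a chaperone of small nucleolar RNA particles, by 0.90 (SE 0.20), both with limma adjusted p = 0.390. The values of all 5 genes kept an unadjusted p under 0.05 in each of the 11 fits that left out 1 library. In all, 15 of the 82 list members did so, beside 88 of the 11971 genes tested. For other members the difference was small beside its error. Nucleophosmin (Npm1), a chaperone of the nucleolus chosen after its values were seen, had effects of 1.20 in soleus and 1.09 in quadriceps, a difference of 0.12 with a 95% interval of -0.27 to 0.50. The rRNA methyltransferase Nop2, chosen likewise, gave 1.25 and 1.11, with an interval of -0.34 to 0.61 for the difference, so differences up to those bounds are not excluded. Nucleolin (Ncl), also chosen in this way, lay between at 0.51 (SE 0.19, limma adjusted p = 0.999).

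**Figure D1:**
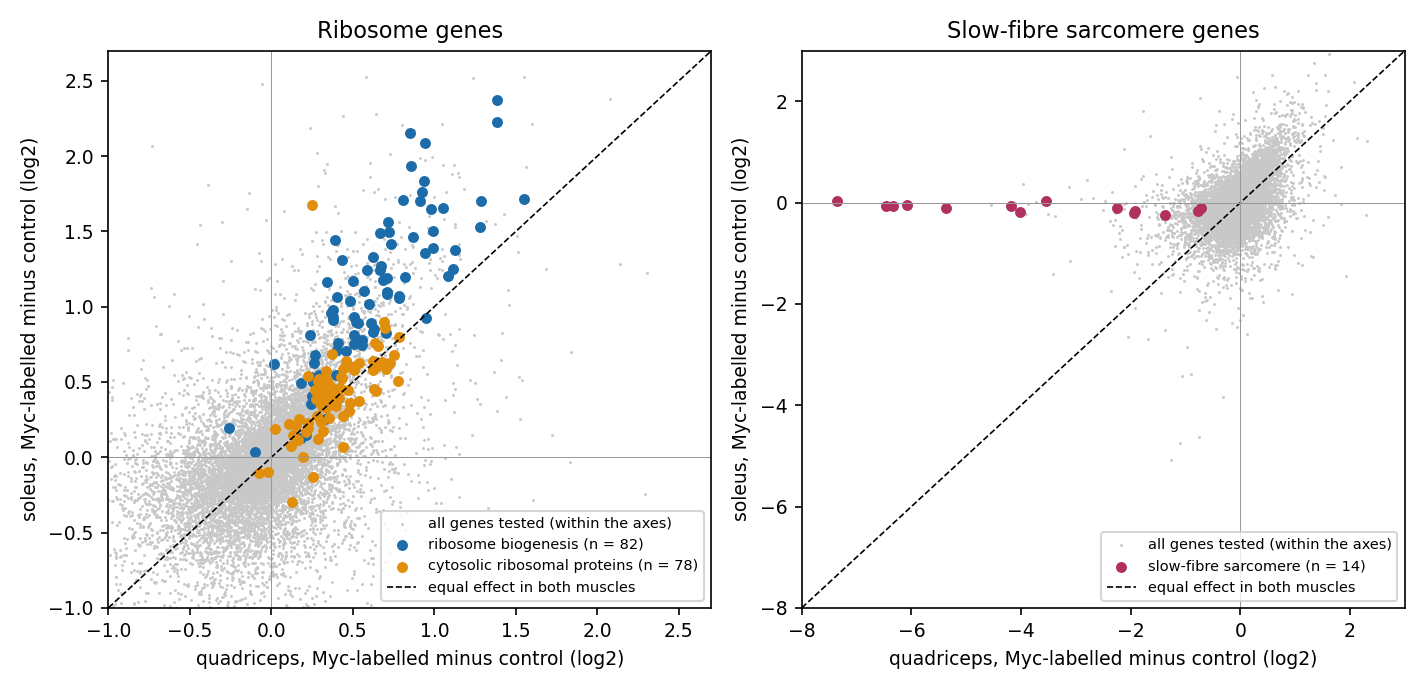
Myc-labelled minus control (log2) in quadriceps (x axis) against soleus (y axis), 1 point a gene, with all genes tested in grey and the dashed line at equal effects. Most of the 82 ribosome biogenesis genes (blue) lie above the line, the 78 ribosomal protein genes (orange) lie along it except Rpl3 at 1.67 in soleus, and the 14 slow-fibre sarcomere genes (red, right) lie near 0 in soleus and below 0 in quadriceps.

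The E-box is shown in its promoter setting because genes of ribosome biogenesis are known targets of Myc. The motif CACGTG, which reads the same on both strands, was searched in RefSeq promoter windows (GRCm38.p6) from 250 bases before to 50 after each start, matched by gene symbol for 9554 of the 11971 genes. Counting a gene when any of its windows held the motif, it was present for 12.1% of them, and for 7.15% of all promoters of the same length in the table. Among ribosome biogenesis genes 16 of 70 held it (22.9%), and among ribosomal protein genes 10.5%. Of the genes with an unadjusted p under 0.05, 45 of 252 larger in soleus held it (17.9%) and 5 of 60 smaller (8.33%). The rRNA methyltransferase gene Nop2 and the nucleotide gene Impdh2, whose differences had intervals that span 0, held it too. These shares are descriptions and carry no test. Of the ribosome biogenesis and nucleotide genes that the naming rule allowed, Atic was the one whose window held it, so the 4 ribosome biogenesis genes with the smallest p that hold it are shown with it, chosen after their values were seen. Capitals mark the motif.
Atic, chr1:71557102-71557201, plus strand: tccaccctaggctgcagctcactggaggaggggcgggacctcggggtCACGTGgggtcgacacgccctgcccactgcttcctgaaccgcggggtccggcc
Wdr43, chr17:71616185-71616264, plus strand: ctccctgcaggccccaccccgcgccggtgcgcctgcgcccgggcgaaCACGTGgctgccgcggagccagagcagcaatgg
Sdad1, chr5:92309975-92310050, minus strand: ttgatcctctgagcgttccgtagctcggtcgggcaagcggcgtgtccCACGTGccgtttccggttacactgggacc
Wdr46, chr17:33940664-33940763, plus strand: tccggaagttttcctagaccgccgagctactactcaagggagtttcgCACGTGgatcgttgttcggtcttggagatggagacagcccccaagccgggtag
Utp4, chr8:106893608-106893689, plus strand: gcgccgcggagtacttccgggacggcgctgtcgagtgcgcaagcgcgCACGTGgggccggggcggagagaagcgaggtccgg
Atic makes the last steps of purine synthesis, and its signal was 489.5, 455 and 501 in soleus controls, 1655, 1589, 1711 and 1689 in soleus Myc-labelled, 619 and 466 in quadriceps control and 1209 and 1229.7 in quadriceps Myc-labelled libraries. Its groups did not overlap in either muscle, and the difference was 0.60 (SE 0.18, limma adjusted p = 0.999). The small-subunit processome gene Wdr43 had 493, 502 and 469.6 in soleus controls, 1064, 1112, 1512 and 1204 in soleus Myc-labelled, 788 and 601 in quadriceps control and 1032 and 839.8 in quadriceps Myc-labelled libraries, a difference of 0.88 (SE 0.23). Differences were 0.84 for Wdr46 and 0.55 for Utp4, of the same processome, and 0.65 for Sdad1, which acts on the large subunit, and in these 4 ribosome genes all 12 soleus differences exceeded all 4 in quadriceps.

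Among genes for the transcription of ribosomal DNA, 1 member passed the unadjusted threshold and none the adjusted one. Of 20 RNA polymerase I genes, 15 differed above 0 (median 0.20), beside 54.2% of all genes, and Polr1b was the one with an unadjusted p under 0.05 (1 of 20, beside 2.59% of all genes). The median ran from 0.11 to 0.28 with 1 library left out, the extremes coming without quadriceps Myc-labelled 2 and 1. Polr1b, a core catalytic subunit, had 287, 217 and 225 in soleus controls, 725, 721, 955 and 826 in soleus Myc-labelled libraries, 346 and 287 in quadriceps controls and 571 and 500.4 in quadriceps Myc-labelled libraries. The step was longer in soleus, and the difference was 0.97 (SE 0.24, limma adjusted p = 0.618). The largest catalytic subunit, Polr1a, differed by 0.30 (95% interval -0.11 to 0.72) and Polr1c, a subunit shared with polymerase III, by 0.50 (95% interval -0.14 to 1.15).

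The structural proteins of the ribosome were spread about 0. Their effects had medians of 0.42 in soleus and 0.36 in quadriceps, the median difference was 0.03, equal to that of all genes to 2 decimals, and 44 of 78 lay above 0. That median was -0.09 without quadriceps control 2 and 0.14 without quadriceps control 1. Rpl3 was the exception. This large-subunit protein reaches towards the peptidyl transferase centre, and its signal was 496, 544 and 578 in soleus controls and 1488, 1472, 1887 and 2115 with Myc, but 247 and 428 in quadriceps controls and 346 and 432 with Myc. The soleus groups lay far apart and the quadriceps groups overlapped. The difference was 1.43 (SE 0.30, 95% interval 0.77 to 2.08, limma adjusted p = 0.390), and it ran from 1.03 to 1.82 when 1 library was left out. Its muscle-specific paralogue Rpl3l, chosen after its values were seen, had 5510.0, 5918 and 6186 in soleus controls, 4084, 4545, 5549 and 4660.2 in soleus Myc-labelled, 8489 and 7889 in quadriceps control and 7924 and 8068 in quadriceps Myc-labelled libraries. Only 1 of its 4 soleus Myc-labelled values reached the range of the soleus controls, and the difference was -0.29 (95% interval -0.68 to 0.09, limma adjusted p = 0.999). Ribosomal protein genes have many near-identical copies in the genome, so their counts are less certain than those of other genes. The member with the next smallest p, Rpl11, which binds Mdm2 when ribosome assembly fails, differed by 0.31 (95% interval -0.14 to 0.75).

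Translation factors and aminoacyl-tRNA synthetases, which start, elongate and supply protein synthesis, had small differences, mostly above 0 in the fit of all libraries. The median was 0.09 over 48 factors (39 above 0, 4 at an unadjusted p under 0.05) and 0.16 over 22 synthetases and their partners (19 above 0, 4 at an unadjusted p under 0.05). Those 4 are 8.33% and 18.2% of the lists, beside 2.59% of all genes, and 54.2% of all genes lay above 0. With 1 library left out the factors' median ran from 0.02 (without quadriceps control 1) to 0.21 (without quadriceps Myc-labelled 1). The synthetases' median ran from 0.10 without quadriceps control 1 to 0.27 without quadriceps control 2. Eif1a, which helps the small subunit scan for the start codon, had 210.3, 178 and 197 in soleus controls, 394, 627, 542 and 487 in soleus Myc-labelled, 201 and 243 in quadriceps control and 317 and 319 in quadriceps Myc-labelled libraries. It was higher in every Myc-labelled library of both muscles, with a difference of 0.85 (SE 0.26, limma adjusted p = 0.999). Eef1e1, a scaffold of the multi-synthetase complex, differed by 0.71 (SE 0.25), the cap-complex helicase Eif4a1 by 0.43 (SE 0.17) and Eif5a, which relieves stalled ribosomes, by 0.40 (SE 0.17). The synthetases with the smallest p were those for histidine (Hars, 0.64), valine (Vars, 0.53), aspartate (Dars, 0.42) and glutamate with proline (Eprs, 0.39), with SEs of 0.17 to 0.24. Trmt61a, the catalytic subunit of a tRNA adenosine methyltransferase, had the largest difference of these genes: its signal was 60.1, 75.7 and 82.2 in soleus controls and 331, 311, 356 and 431 with Myc, against 108 and 81.5 in quadriceps controls and 119 and 181 with Myc. The soleus groups stood several-fold apart and the quadriceps groups were close, and the difference was 1.64 (SE 0.35, limma adjusted p = 0.390).

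**Figure D2:**
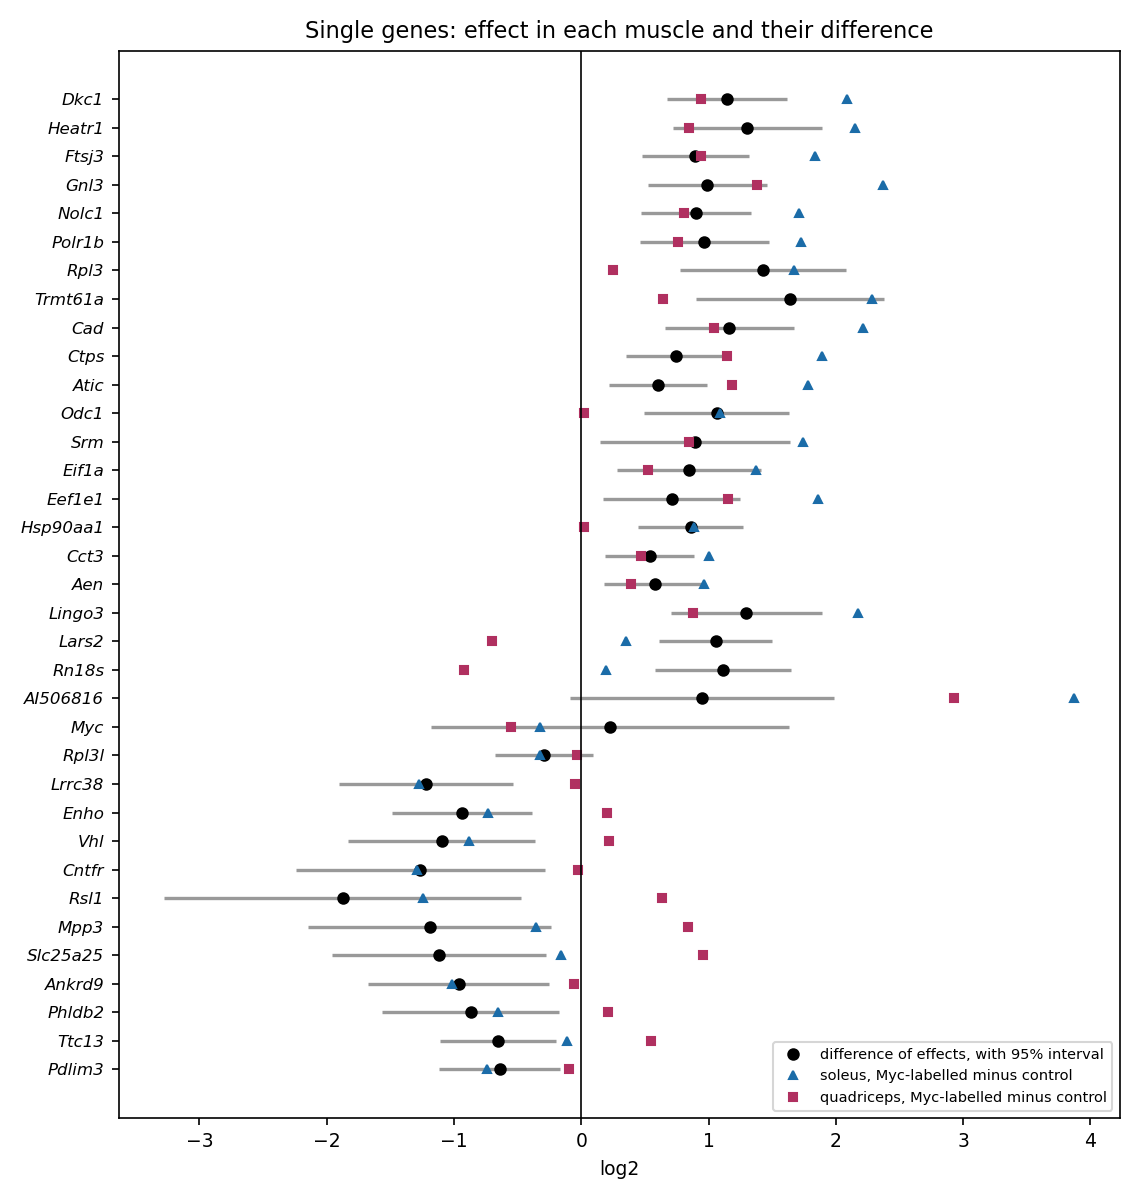
Log2 effects in soleus (triangles) and quadriceps (squares), Myc-labelled minus control, and their difference (black points, with 95% intervals from limma) for 35 genes. Dkc1 at 1.14 and most genes of ribosome, nucleotide and protein synthesis have intervals above 0, and Myc and Rpl3l have intervals that span 0. Lrrc38 at -1.22 is drawn first of the genes with intervals below 0, and Rsl1 at -1.87 is the lowest of them.

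Among genes that make nucleotides, Cad, of pyrimidine synthesis, had the smallest p. Over 32 nucleotide and one-carbon genes the median difference was 0.28, 24 lay above 0 and 5 (15.6%, beside 2.59% of all genes) had an unadjusted p under 0.05. The median ran from 0.17 (without quadriceps control 1) to 0.29 with 1 library left out. Cad, which catalyses the first steps of pyrimidine synthesis, had 137, 163 and 139 in soleus controls and 606, 684, 743 and 686 in soleus Myc-labelled libraries. In quadriceps it had 138 and 122 in controls and 242 and 300.01 with Myc. The groups did not overlap in either muscle and the soleus step was the longer, and the difference was 1.16 (SE 0.24, 95% interval 0.66 to 1.67, limma adjusted p = 0.390). Dctd, a deaminase that feeds thymidylate synthesis, went from 5.30, 11.6 and 2.35 to 148, 146, 145 and 148 in soleus and from 18.6 and 11.6 to 33.9 and 53.3 in quadriceps. Its controls were near the filter minimum of 10, so its difference of 3.05 (SE 0.72, limma adjusted p = 0.534) depends on the 1 added before taking logs. Ctps, the CTP synthase, differed by 0.74 (SE 0.18, limma adjusted p = 0.618). Psat1, of serine synthesis, had 22.0 and 46.5 in quadriceps controls and 9.26 and 30.6 with Myc, so these groups overlapped, and its difference was 1.59 (SE 0.63), or 0.78 without quadriceps Myc-labelled 1 and 2.40 without quadriceps Myc-labelled 2. Impdh2, the rate-limiting enzyme of guanine nucleotide synthesis, had effects of 1.57 in soleus and 1.32 in quadriceps, and the interval of its difference was -0.24 to 0.75. Psat1 and Impdh2 were chosen after their values were seen.

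In polyamine synthesis the rate-limiting enzyme had the larger effect in soleus, without passing the adjusted test. Odc1, ornithine decarboxylase, had 1062, 1028 and 1375 in soleus controls, 2368, 2067, 2552 and 2814 in soleus Myc-labelled, 4098 and 4192 in quadriceps control and 5344 and 3315 in quadriceps Myc-labelled libraries. It was higher with Myc in all soleus libraries, while the quadriceps Myc-labelled libraries lay on either side of their controls. The difference was 1.07 (SE 0.26, limma adjusted p = 0.650). Spermidine synthase (Srm) had effects above 0 in both muscles, 1.74 in soleus and 0.85 in quadriceps, and differed by 0.89 (SE 0.35, limma adjusted p = 0.999). Over the 10 genes of the list the median was 0.03, or -0.04 to 0.20 with 1 library left out.

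Among the chaperones a few genes stood apart, and none passed the adjusted test. The list median was 0.22, 33 of 41 lay above 0, beside 54.2% of all genes, and 4 had an unadjusted p under 0.05 (9.76%, beside 2.59% of all genes). Hsp90aa1, the inducible cytosolic Hsp90, had 789.9, 870.1 and 749 in soleus controls and 1621, 1435, 1225 and 1673 with Myc, against 814 and 786 in quadriceps controls and 810.4 and 813 with Myc. The soleus Myc-labelled values were all above the controls, and the 4 quadriceps values were close together with overlapping groups. The difference was 0.86 (SE 0.19, 95% interval 0.45 to 1.27, limma adjusted p = 0.390), and it ran from 0.80 to 0.95 with 1 library left out. Cct3, a subunit of the chaperonin that folds actin and tubulin, had effects of 1.003 and 0.47 and differed by 0.54 (SE 0.17). Hsph1, a nucleotide exchange factor for the heat shock chaperones, differed by 0.54 (SE 0.22). The largest difference of the list was that of the heat-inducible Hspa1a at 1.78, chosen after its values were seen. Its quadriceps controls were 157 and 599.6 and its quadriceps Myc-labelled libraries 45.6 and 177, so the groups overlapped and the SE was 0.96. In the p53 and G1/S list, 1 of 21 genes had an unadjusted p under 0.05 (4.76%, beside 2.59% of all genes). It was the p53-induced exonuclease gene Aen, at 0.58 (SE 0.19, limma adjusted p = 0.999). The list median was 0.23 beside 0.03 over all genes, or 0.09 without soleus control 2.

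**Figure D3:**
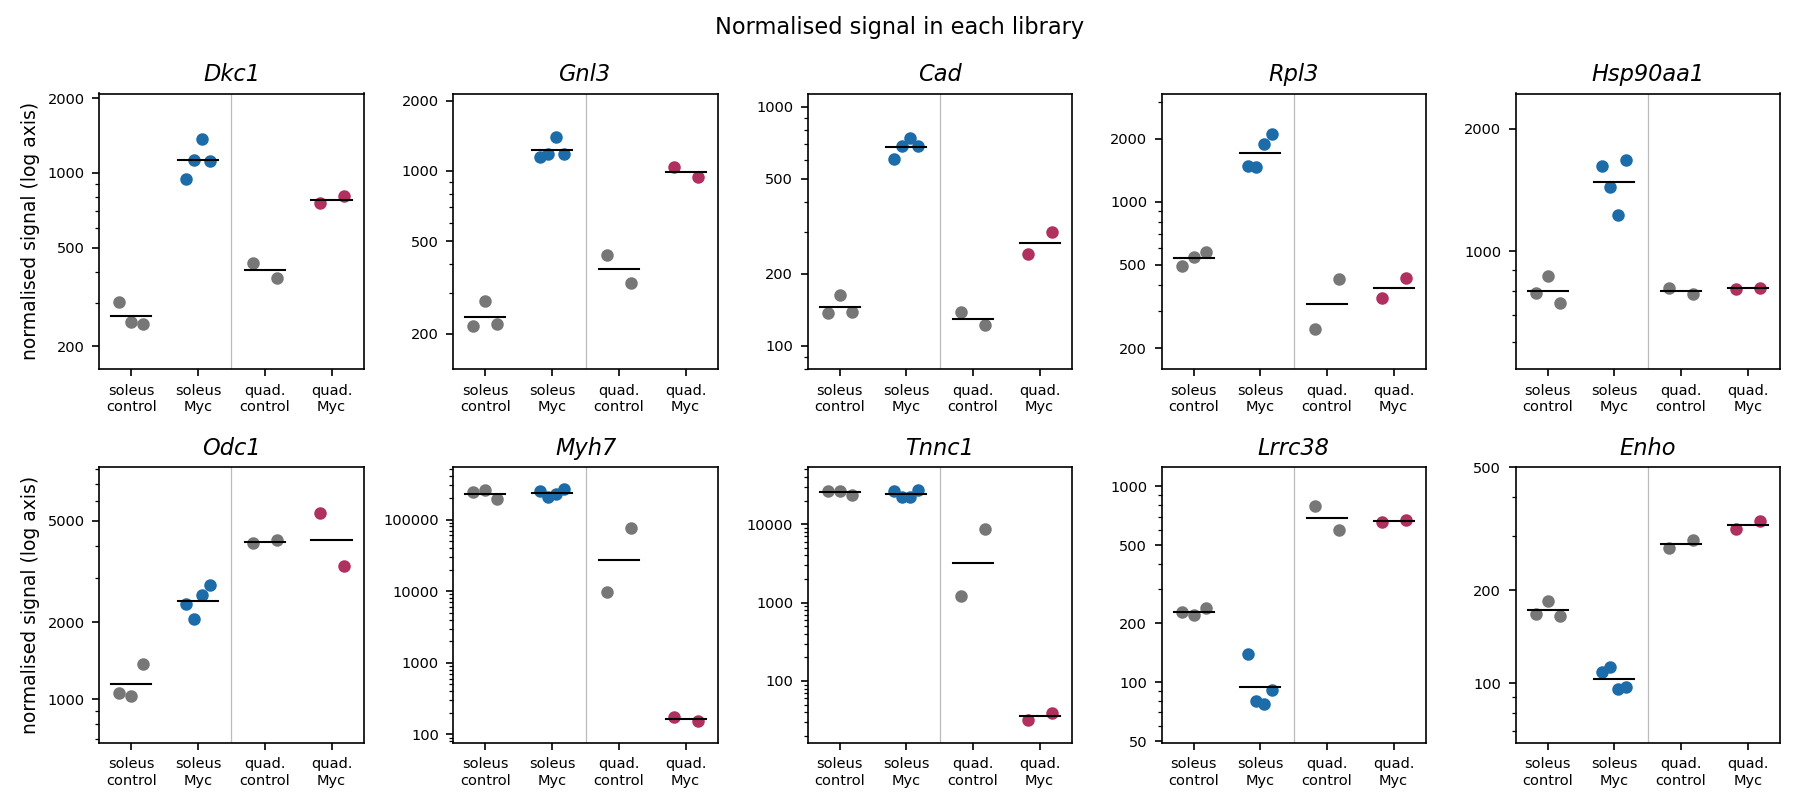
Normalised signal (log axis) of 10 genes in every library, by muscle and label, with lines at the group means of log2(value + 1). Dkc1, Gnl3 and Cad stand higher with Myc in both muscles and by more in soleus, Hsp90aa1 in soleus alone, while Myh7 is near 230761 in the soleus controls and spans 156 to 76136 in quadriceps.

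The largest differences belonged to slow-fibre genes, whose soleus effects were near 0 and whose quadriceps effects were below 0. In the slow-fibre sarcomere list all 14 genes differed above 0 (median 3.71), while the soleus effects lay between -0.23 and 0.04 and the quadriceps effects between -7.36 and -0.72. Myh7, the slow myosin heavy chain, had 241772, 257270.0 and 193242 in soleus controls and 248011, 207400.0, 224765 and 266460.0 with Myc. In quadriceps it had 9731 and 76136 in controls and 174 and 156 with Myc. The soleus groups overlapped fully, and both quadriceps controls stood above both Myc-labelled libraries but also far from each other. The difference was 7.40 (SE 0.99, 95% interval 5.08 to 9.72, limma adjusted p = 0.390), and it was 5.92 without quadriceps control 2 and 8.89 without quadriceps control 1. The slow troponins were alike in this. Tnnc1, which binds calcium, differed by 6.40 (SE 0.95), the inhibitory Tnni1 by 6.26 (SE 1.03) and the tropomyosin-binding Tnnt1 by 6.02 (SE 1.09). The slow myosin light chains Myl2 and Myl3 differed by 5.27 (SE 1.32) and 3.83 (SE 0.998) and slow tropomyosin Tpm3 by 4.11 (SE 0.93). Each of these SEs pools 1 spread over all 4 groups, although the quadriceps controls varied more than the other groups. The SEs and the interval of Myh7 therefore understate the uncertainty that comes from those controls.

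In 8 of these 14 genes all 12 soleus differences lay above all 4 in quadriceps, beside 2.96% of all genes. Between the quadriceps controls, control 2 exceeded control 1 in all 14 genes, by 1.81 to 10.4 times. Their summed signal was 49853 and 225996 in the quadriceps controls and 11852 and 64095 in the Myc-labelled libraries, so the sums overlapped, while it was 576586 to 690063 in soleus. The list median was 2.12 without quadriceps control 2 and 5.29 without quadriceps control 1. Leaving out 1 quadriceps control also removed the spread between the controls from the fit, and Myh7 and the 3 troponin genes then had adjusted p under 0.05 in limma, in which the lone control is assumed to vary like the other groups. What set the level of these genes in each quadriceps library was not tested.

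Genes of slow-fibre calcium handling and metabolism differed in the same direction by less, with 17 of 18 above 0 and a median of 0.77. That median ran from 0.11 to 1.74 with 1 library left out, the extremes coming without quadriceps Myc-labelled 1 and 2. Atp2a2, the calcium pump of slow fibres, had 5989 and 36717 in quadriceps controls and 812 and 1249 in Myc-labelled libraries beside 101176 to 143821 over all soleus libraries. The difference was 3.86 (SE 0.90, limma adjusted p = 0.868). Its small regulator sarcolipin (Sln) differed by 3.69 (SE 1.04), the sarcomeric adaptor Fhl2 by 2.49 (SE 0.62) and the slow-fibre transcription factor Prox1 by 2.07 (SE 0.57). Fhl2 had 20.9 and 66.5 in quadriceps controls and 5.14 and 6.91 in quadriceps Myc-labelled libraries. It met the quadriceps filter of 10 through its controls alone, and its difference depends on the 1 added before taking logs. With 1 library left out Sln ran from 2.29 to 5.09, Fhl2 from 1.68 to 3.30 and Prox1 from 1.29 to 2.84, in each case lowest without quadriceps control 2 and highest without quadriceps control 1. Outside the lists, the secreted synaptic protein gene Lgi1 differed by 4.50 (limma unadjusted p = 0.0184) and the vesicle protein gene Sv2b by 4.33 (limma unadjusted p = 0.0232). Their quadriceps controls were 24.4 and 210.3 for Lgi1 and 20.9 and 152 for Sv2b, with 1 of the 2 Myc-labelled libraries at 0. Both differences therefore depend on the 1 added before taking logs. For Sv2b the soleus differences between single libraries, from -1.17, overlapped those in quadriceps, up to -0.66.

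Fast-fibre genes leaned the other way without single genes passing even the unadjusted threshold. Of 21, 20 differed below 0 (median -0.39), with median effects of -0.41 in soleus and 0.01 in quadriceps. The median was -0.65 without quadriceps Myc-labelled 2 and -0.26 without quadriceps Myc-labelled 1. Mylpf, the fast regulatory light chain, had 22009, 23408 and 22415 in soleus controls, 14552, 19184, 17580.5 and 14579 in soleus Myc-labelled, 119470.0 and 95729.5 in quadriceps control and 137232 and 89891 in quadriceps Myc-labelled libraries. The soleus Myc-labelled values were below all soleus controls, and the quadriceps groups overlapped. The difference was -0.52 (95% interval -1.05 to 0.01, limma adjusted p = 0.999), close to that of the Z-disc gene Myoz3 (-0.73, 95% interval -1.47 to 0.01). Myh4, the fastest myosin heavy chain of the limb, was among the largest differences below 0 at -2.71, but its soleus values were 664, 26824 and 10303 in controls and 318, 589, 17469 and 243 with Myc. Both soleus groups held high and low libraries, and the SE was 2.97. The calcium buffer Pvalb differed by -1.34 (SE 0.84).

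Energy metabolism differed little. The median was -0.07 over 76 oxidative phosphorylation genes (65 below 0), -0.07 over 29 glycolysis and glycogen genes, and 0.19 over 31 fatty acid genes (26 above 0), with no member at an unadjusted p under 0.05. All 3 medians changed sign when 1 of the quadriceps Myc-labelled libraries was left out, running over all single omissions from -0.22 to 0.07, -0.28 to 0.05 and -0.14 to 0.45. The Myc and Max network had a median of -0.02 over 11 genes. Its member with the smallest p was the antagonist Mxd1, at 91.0, 109 and 92.7 in soleus controls and 64.2, 51.1, 63.3 and 58.4 with Myc, against 91.7 and 83.9 in quadriceps controls and 90.5 and 67.1 with Myc. Its soleus groups did not overlap, its quadriceps groups did, and the difference was -0.54 (SE 0.39, limma adjusted p = 0.999).

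**Figure D4:**
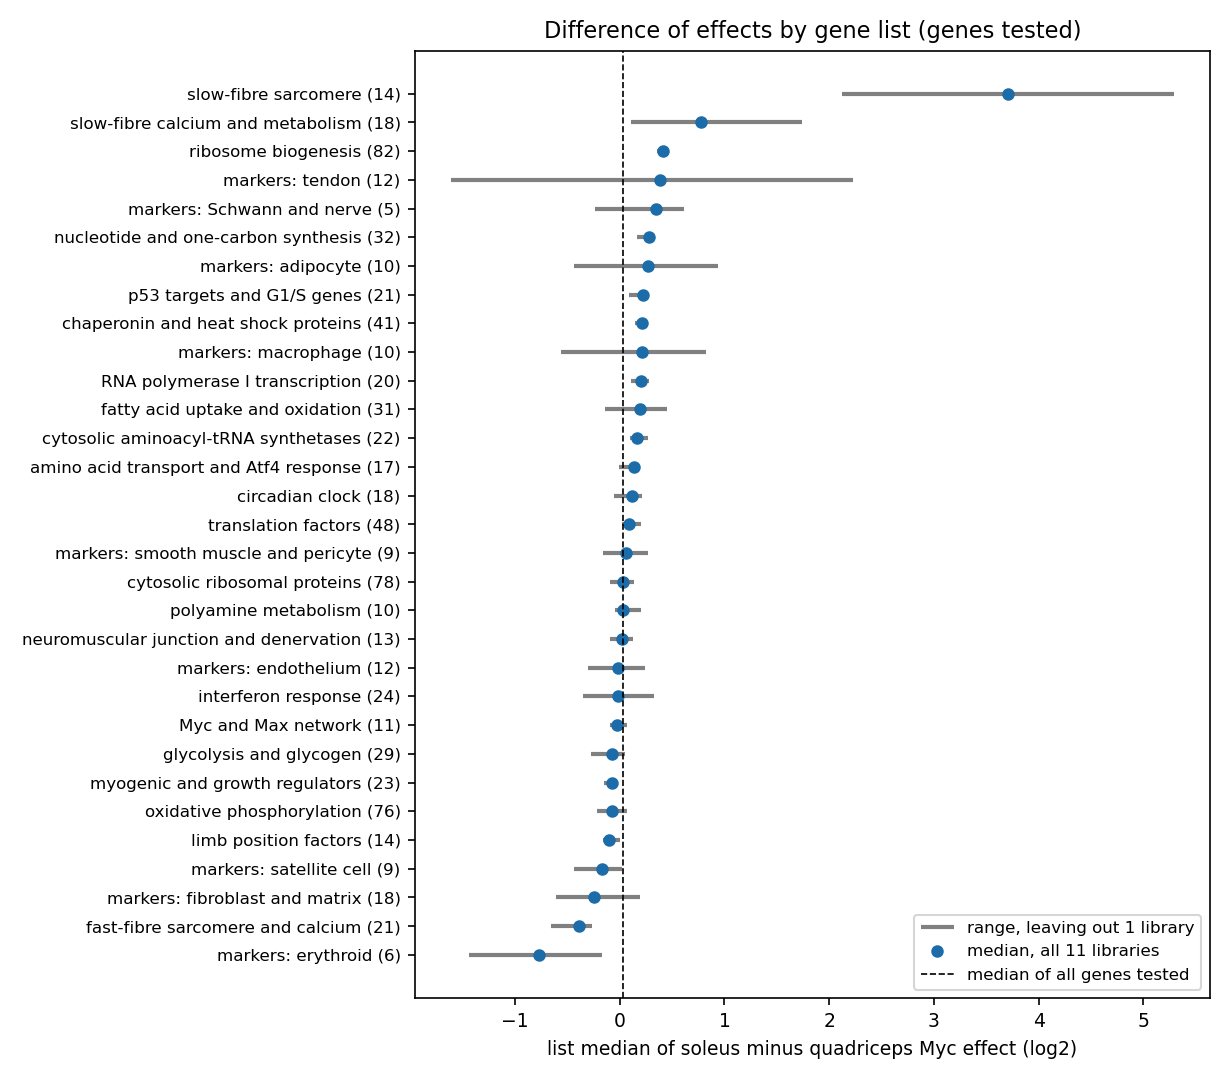
Median over each of 31 gene lists (liver and leukocyte markers are not drawn) of the soleus minus quadriceps difference of effects (log2, points), with the range over 11 fits that each left out 1 library (bars) and the number of genes tested in brackets. The slow-fibre sarcomere list is highest at 3.71 with a wide bar, ribosome biogenesis at 0.41 has one of the narrowest, and of the lists drawn the erythroid markers are lowest at -0.77.

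Markers of other cell types differed in level between libraries, and none had an unadjusted p under 0.05 for the difference. All 6 erythroid markers tested lay below 0 (median -0.77, or -1.43 without quadriceps Myc-labelled 1 and -0.17 without quadriceps Myc-labelled 2), with a summed signal of 8181 to 8321 in soleus controls, 3760.2 to 8113 in soleus Myc-labelled, 3137 to 4327 in quadriceps control and 3322 to 5355 in quadriceps Myc-labelled libraries. The beta-globin gene Hbb-bs differed by -0.99 (SE 0.53). Of 12 tendon markers 11 lay above 0 (median 0.38), and the median ran from -1.61 without quadriceps Myc-labelled 1 to 2.22 without quadriceps Myc-labelled 2. The tendon sum was 4416 and 1964 in the quadriceps controls and 358 and 4041 in the Myc-labelled libraries, and 2838 to 10832 in soleus. Their part in the other differences was not tested. Medians of the fibroblast, endothelial, pericyte, macrophage, adipocyte, Schwann and satellite cell markers lay between -0.25 and 0.35, but each took either sign as 1 library was left out, over a span from -0.61 for fibroblasts to 0.94 for adipocytes. In all, 1 of 11 leukocyte markers could be tested. Among 14 factors of limb position 9 lay below 0 (median -0.10), the lowest being Hoxa11 at -1.14, chosen after its values were seen. Hoxc9 (0.78, SE 0.34) and Hoxc8 (1.43, SE 0.64) had an unadjusted p under 0.05 (14.3% of the list, beside 2.59% of all genes) and the hindlimb factor Tbx4 (1.10, SE 0.55) did not.

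Outside the lists, Lars2 and Rn18s had lower Myc-labelled than control values in quadriceps and overlapping or higher ones in soleus. Rn18s, the RNA of the small ribosomal subunit, had 42436, 41889 and 38421 in soleus controls, 35289, 50142, 46662 and 57512 in soleus Myc-labelled, 513584 and 659877 in quadriceps control and 326327 and 288483 in quadriceps Myc-labelled libraries. Both quadriceps controls exceeded both Myc-labelled libraries, whereas the soleus groups overlapped. The gene held 3.11% and 4.32% of all signal in the quadriceps controls, 2.03% and 2.01% in the quadriceps Myc-labelled libraries and 0.288% to 0.449% in soleus, and its difference was 1.12 (SE 0.25, limma adjusted p = 0.390). The mitochondrial leucyl-tRNA synthetase gene Lars2 had 5726, 4469 and 4499.5 in soleus controls, 5269, 7246, 6218 and 6272 in soleus Myc-labelled, 24729 and 28107 in quadriceps control and 17139.5 and 15293 in quadriceps Myc-labelled libraries. It had the order of Rn18s in the 4 quadriceps libraries, and its difference was 1.06 (SE 0.21, limma adjusted p = 0.390). The part of this RNA in the other differences was not tested. Lingo3, a leucine-rich repeat membrane protein gene, had effects of 2.17 in soleus and 0.87 in quadriceps and a difference of 1.30 (SE 0.28).

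Genes whose effect was smaller in soleus were fewer, and several of the leading ones were lower with Myc in soleus and near their controls in quadriceps. Of the 71 at an unadjusted p under 0.05, 51 had an effect below 0 in soleus and above 0 in quadriceps, 15 were below 0 in both and 5 above 0 in both. Lrrc38, an auxiliary subunit of the large-conductance potassium channel, had 227, 220.2 and 239 in soleus controls and 139, 80.4, 77.1 and 91.0 with Myc, against 798 and 596 in quadriceps controls and 660.3 and 670.1 with Myc. The soleus groups did not overlap and the quadriceps Myc-labelled values lay between their controls, and the difference was -1.22 (SE 0.32, 95% interval -1.90 to -0.53, limma adjusted p = 0.670). Enho, which encodes the peptide hormone adropin, had 168, 185 and 166 in soleus controls, 109, 113, 95.6 and 97.0 in soleus Myc-labelled, 275 and 291 in quadriceps control and 316 and 337 in quadriceps Myc-labelled libraries. Its groups were apart in both muscles and in opposite directions, with a difference of -0.94 (SE 0.26, limma adjusted p = 0.786).

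Vhl, which marks hypoxia-inducible factors for degradation, had 148, 149 and 130.3 in soleus controls and 91.5, 74.5, 61.0 and 83.1 with Myc, against 115 and 143 in quadriceps controls and 158 and 140.1 with Myc. The soleus groups were apart, the quadriceps groups overlapped, and the difference was -1.10 (SE 0.34, limma adjusted p = 0.999). Cntfr, the receptor subunit for ciliary neurotrophic factor, differed by -1.27 (SE 0.45), with quadriceps Myc-labelled values of 330.1 and 642 on either side of the controls at 549 and 398. The Z-disc adaptor Pdlim3 differed by -0.64 (SE 0.22), the ankyrin-repeat gene Ankrd9 by -0.96 (SE 0.33), the lectin gene Clec2d by -0.71 (SE 0.25) and Phldb2, which anchors microtubules at the cell cortex, by -0.87 (SE 0.33). For other genes the quadriceps values carried the difference. Slc25a25, a mitochondrial carrier of adenine nucleotides, had 888 and 514 in quadriceps controls and 1522 and 1129 with Myc, beside 224, 288 and 440.2 in soleus controls and 288, 235, 289 and 282 in soleus Myc-labelled libraries. Its quadriceps groups did not overlap and its soleus groups did, and the difference was -1.12 (SE 0.38, limma adjusted p = 0.999). The scaffold gene Mpp3 (-1.19, SE 0.45) and Ttc13 (-0.65, SE 0.21) had the same form. The zinc finger repressor gene Rsl1 (-1.87, SE 0.66) and the protease gene Ufsp1 (-0.91, SE 0.34) had effects below 0 in soleus and above 0 in quadriceps.

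Some of the largest differences below 0 rested on single libraries or uneven levels. The chemokine gene Ccl21b, which has near-identical copies, had 34.2, 33.8 and 64.8 in soleus controls, and with Myc it had 8.12 in 1 library and values that round to 0 in the other 3. In quadriceps it had 79.4 and 44.3 in controls and 32.1 and 37.6 with Myc, and the difference was -3.88 (SE 1.27, limma adjusted p = 0.999). The class I gene H2-T10 had effects above 0 in both muscles and differed by -3.26 (SE 2.28), with 1 of 4 soleus Myc-labelled libraries at 0 and the others at 54.3 to 79.4. All its controls were under the filter minimum of 10, at 7.95, 3.88 and 7.04 in soleus and 1.16 and 6.65 in quadriceps. The liver genes Apoa1 (-3.82), Apob (-2.49) and Alb (-2.36) had SEs of 3.74 to 5.83. Apoa1 was at 0 in 3 of the 4 soleus Myc-labelled libraries. Albumin (Alb) was 16886 in soleus control 2 and 52.1 and 1.17 in the other soleus controls. The median of 6 liver markers tested, of a list written after their values were seen, was -1.51, and 0.62 without soleus control 2. Their summed signal was 449 to 38416 in soleus controls, 407 to 3005 in soleus Myc-labelled and 514 to 4812 in quadriceps libraries, and its part in other results was not tested.

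The precision of a single gene's difference was limited by the 4 quadriceps libraries. The median SE was 0.31 log2, and the median 95% interval reached 0.67 to either side, or 1.59-fold. With equal spread in both muscles, 63.2% of the variance of the difference comes from quadriceps, and the median spread within groups was indeed close, an SD of 0.229 in soleus and 0.219 in quadriceps. The width differed by gene, and among the 8890 genes with a mean of at least 100 the median reach was 0.55. Some differences smaller than 0.67, such as that of Cct3 at 0.54, therefore had an unadjusted p under 0.05. No difference of any size passed the adjusted test. In all, 88 genes kept an unadjusted p under 0.05 in each of the 11 fits that left out 1 library, 82 of them larger in soleus and 6 smaller. Of 85 genes examined in this way, 32 had a difference that moved by over 1.5 times or changed sign in at least 1 of those fits, 4 of them changing sign.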

How the data were processed

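RNA was sequenced from 11 mouse muscle libraries, grouped by title into soleus controls (3), soleus Myc-labelled (4), quadriceps controls (2) and quadriceps Myc-labelled (2). The authors deposited 1 table a muscle, which hold a signal for each gene and were normalised separately. Among tools the submitters' processing notes list Partek, DESeq2 and STAR 2.7.8a, and among builds mm10 and mm39, without saying what each was used for. Read from the values, each signal is an estimated read count divided by 1 factor a library: 91.0% to 93.4% of values were whole multiples of the worth of 1 read (within 0.02), too few for a count test. That worth gives an estimated 11089133 to 18379022 reads a library.

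Here, log2(signal + 1), which understates changes of low genes, was fitted with limma 3.58.1 (R 4.3.3, statmod 1.5.0; mean-variance trend, robust moderation), with 4 group means over all 11 libraries. Genes entered with a signal of 10 or more in 3 soleus and 2 quadriceps libraries, and Benjamini-Hochberg adjustment ran over 11971 genes, two-sided, called at 0.05. The script was tested on simulated data.

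The 32 gene lists, the quantity compared and the naming rule were chosen with earlier results of these data known. The rule allowed Myc, AI506816, the 15 genes with the smallest p and the 8 largest differences in each direction (mean of at least 20 in each table, predicted genes left out), up to 10 genes called most often with 1 library left out, and up to 4 genes of each list. Some genes it allowed are not reported here, and genes outside it are said to be chosen after their values were seen. Same-numbered libraries of the 2 muscles correlated at -0.03 to 0.16 in their deviations from group means, and differently numbered ones at -0.16 to 0.12. With 2 quadriceps libraries a group their deviations mirror each other, so this cannot show whether equal numbers mark 1 animal. Same-numbered libraries were not treated as pairs. Alternatives changed the scaling, pseudocount, filter, variance model, block and libraries.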

Additional observations from a re-analysis of the deposited data

Results flagged for a closer look

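The 4 soleus Myc-labelled libraries were examined for a value standing apart, with the gap to its nearest neighbour divided by the group's range, both on the scale of log2(value + 1), and set against Dixon's critical value, for 85 genes and 32 lists. Chance alone would single out about 1 in 20 such groups, and 6 of 117 stood out.

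AI506816 had a ratio of 0.932: the third library was at 495 and the others at 1142 to 1214, and without it the difference of effects was 1.26. H2-T10 had 0.915, with the fourth library at 0 and the others at 54.3 to 79.4, and without it the difference was -1.74. Ccl21b had a ratio of 1, with the third library at 8.12 and the others at values that round to 0 (difference without it -4.68). Apoa1 had a ratio of 1, with the first library at 184 and the others at 0, and a difference of -5.70 without it. Slc25a25 had 0.886, with the second library at 235 and the others at 282 to 289, and a difference of -1.05 without it. The median of the myogenic and growth regulator list, taken relative to the soleus controls, had 0.95, with the fourth library at -0.09 and the others at -0.20 to -0.19, and the list's median difference was -0.05 without it.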

How the results depend on the processing

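No gene was called in any scaling, pseudocount, filter or weighting tried, nor with each muscle fitted alone, and no scaling moved the median of all genes by over 0.1. Without robust moderation 4 genes were called (Myh7, Tnnc1, Tnni1 and Tnnt1). Leaving out 1 library gave 0 to 17 calls: 17 without quadriceps control 1, 8 without quadriceps control 2 and 6 without quadriceps Myc-labelled 2, all in fits where a lone library is assumed to vary like the other groups. Over single omissions 248 to 637 genes had an unadjusted p under 0.05 and a larger value in soleus, and 68 to 161 a smaller one. The count of smaller ones, 71, was 110 with upper-quartile scaling (276 larger) and 108 without a mean-variance trend. Single omissions took the difference of Myc from -0.44 to 0.90, Alb from -5.29 to 1.18, Npm1 from -0.069 to 0.30 and Nop2 from -0.023 to 0.29, and Alb was at 0.68 without soleus Myc-labelled 3 and 4. For these the cause was not tested.

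A replicate block on the number left 0 genes called and 113 smaller in soleus at an unadjusted p under 0.05, and 359 larger. A replicate block on condition and number together gave 0 calls as fixed terms (226 larger, 82 smaller) and 0 as a random term (352 and 91; consensus correlation 0.102). Same-number correlations were 0.10 and 0.16 for controls and -0.03 and 0.10 for Myc-labelled libraries. edgeR and DESeq2 fits were not run, since whole reads were not recovered, and upper-quartile scaling took the place of TMM. The median unadjusted 95% interval reached 0.67 log2 to either side, with 2 libraries a group in quadriceps. For a gene with an interval of that width, smaller differences could not be resolved even before adjustment. Larger ones, such as that of Dkc1 at 1.14, did not pass the adjusted test either.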
